A study of Mus musculus with 2 samples.

Results

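The S100 genes encode small calcium-binding proteins, and 8 of them were examined here in T helper 2 (Th2) cells with and without Ecm1. The members were S100a1, S100a4, S100a6, S100a8, S100a9, S100a10, S100a11 and S100a13. They were found as probe sets whose only gene symbol in the platform annotation is a member, which gave 10 probe sets for 7 of the 8 genes, among 45101 probe sets and 18193 named genes on the array. The single probe set that lists S100a11 carries 3 symbols at once, so S100a11 has no value here. For the comparison asked of the family, S100a8 and S100a9 were taken as the neutrophil members and the other 6 as members of lymphocytes or of many cell types.

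The study set Th2 cells of mice lacking Ecm1, a secreted glycoprotein of the extracellular matrix, against Th2 cells of wild-type mice, with 1 array for each. Both samples were of strain C57BL/6, and the labels describe female mice of 6 weeks. Spleen cells were depleted of red cells, CD4+ cells were taken on a magnetic column after binding an anti-CD4 antibody, and the cells were cultured for 4 days with anti-CD3 (3 μg/ml, on the plate), anti-CD28 (2 μg/ml), IL-4, anti-IFN-γ (10 μg/ml) and anti-IL-12 (10 μg/ml). The labels do not say which cells lack Ecm1, how the allele was made or how many animals stand behind an array.

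With 1 array in each group no difference below carries a test, an SD between samples or a p-value, and each describes these 2 arrays. Deposited values are linear signal intensities, and the floor of an array was its median signal (65.5 in the knockout, 69.2 in wild type). A gene counted as measured where its signal reached the floor. Differences are of log2 signal, knockout minus wild type, and were centred by taking off -0.10, their median over 20834 probe sets measured on both arrays. The technical SD of a single probe set's difference, from the disagreement between the 2 brightest probe sets in 4657 genes, was 0.36 on this log2 scale. The gap between 2 probe sets has a larger SD. The technical SD covers no error of animals, cultures or arrays.

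The Ecm1 probe set read 19.3 in the knockout against 29114.7 in wild type, as the labels have it. On other points the arrays and labels differed. The Y-linked Eif2s3y read 2214.4 in the knockout against 25.0 in wild type although both samples are described as female. Xist, which is made from the silenced X chromosome in female cells, was well above the floor on both, with 8715.3 against 19739.9 in its brightest probe set. The sample descriptions name liver, while 12 of 13 hepatocyte markers were below the floor on both arrays. All 13 T cell markers on the array and 9 of 11 Th2 markers were measured on both. T cell markers were lower in the knockout (summed signal 73261 against 142388), while B cell markers (34851 against 17256), plasma cell markers (98859 against 44559) and monocyte and macrophage markers (26334 against 18967) were higher. These shifts lie along the same contrast as the S100 differences, and their part in them was not tested. In such bulk RNA, fewer cells of a type and less RNA per cell cannot be told apart.

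S100 proteins are EF-hand proteins that mostly work as dimers. Calcium opens a hydrophobic cleft through which they grip target proteins such as annexins and myosin. Inside cells they tune the cytoskeleton, membranes and enzymes, and some are released and act as alarm signals on receptors such as RAGE and TLR4. S100A8 and S100A9 pair to form calprotectin, which fills the cytosol of neutrophils and monocytes, whereas S100a4, S100a6, S100a10 and S100a11 are well known among the genes of effector and memory T cells.

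All 8 members lie on mouse chromosome 3, within a stretch of 101 genes in the RefSeq order (GRCm38.p6) that starts with S100a1 and ends with S100a10. S100a1 and S100a13, the members with the highest differences measured on both arrays, stand head to head, with S100a1 read from the minus strand and S100a13 from the plus strand. There are 104 bases between the annotated starts used here, 90514330 for S100a1 and 90514435 for S100a13. The S100a13 gene record begins earlier, at 90514233, so the 2 gene records share 98 bases. The first sequence, shown because it lies between the starts used, is this stretch (chr3:90514331-90514434, plus strand). It is therefore inside the S100a13 gene record and is not intergenic. The other 3 are the 60 bases before the annotated start of S100a4 (chr3:90603710-90603769, plus strand), S100a8 (chr3:90669011-90669070, plus strand) and S100a9 (chr3:90695722-90695781, minus strand), shown to set a lymphocyte member beside the neutrophil pair. Capitals mark TATAAA, the TATA box, and GAGGAA or its reverse complement TTCCTC, the core bound by the myeloid and B cell factor PU.1.
S100a1-S100a13: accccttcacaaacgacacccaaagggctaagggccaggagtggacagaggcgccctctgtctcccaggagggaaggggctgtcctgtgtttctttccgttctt
S100a4: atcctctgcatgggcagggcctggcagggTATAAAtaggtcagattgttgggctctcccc
S100a8: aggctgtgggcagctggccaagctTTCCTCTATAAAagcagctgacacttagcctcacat
S100a9: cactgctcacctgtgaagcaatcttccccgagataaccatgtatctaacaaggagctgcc

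Windows upstream of the start were found in RefSeq for 7 of the 8 members, S100a10 being the exception. Searched on both strands, TATAAA stood in the last 60 bases before the start of 2 of the 7, S100a4 and S100a8, where it begins 31 and 30 bases before the start. In all 32851 windows of the table, 3.92% held it there. In S100a9 the same letters begin at the annotated first base of the transcript, so they are outside the window printed. GAGGAA or TTCCTC was in the last 60 bases of S100a8 only, adjoining the TATA box and not overlapping it, and in 6.08% of all windows. The stretch between the starts used for S100a1 and S100a13 held neither motif and was 58.7% G and C. These are matches of letters, and no binding was measured.

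Of the 7 members with a probe set, 5 were measured on both arrays, S100a8 on the knockout array alone, and S100a9 on neither. The 5 had differences from -0.33 to 1.09 with a median of 0.49, beside a median of 0.04 and an interquartile range from -0.33 to 0.43 over all 10144 genes on both arrays. S100a1, S100a13 and S100a4 had higher signals in the knockout, and S100a6 and S100a10 lower ones. S100a1 alone was at least 2-fold higher, 1 of 5 members where 7.15% of all genes on both arrays were. None was lower by that much, where 4.45% were. At 1.5-fold, 3 of the 6 members measured on either array were higher, S100a8 by its bound, where 18.5% of all genes were. That count rested on the setting, since S100a13 (0.55) and the bound of S100a8 (0.56) were under 1.5-fold without centring. Among all 11265 genes measured on either array, 830 were higher by 2-fold or more and 501 lower, a split that was 669 and 670 without centring.

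**Figure D1:**
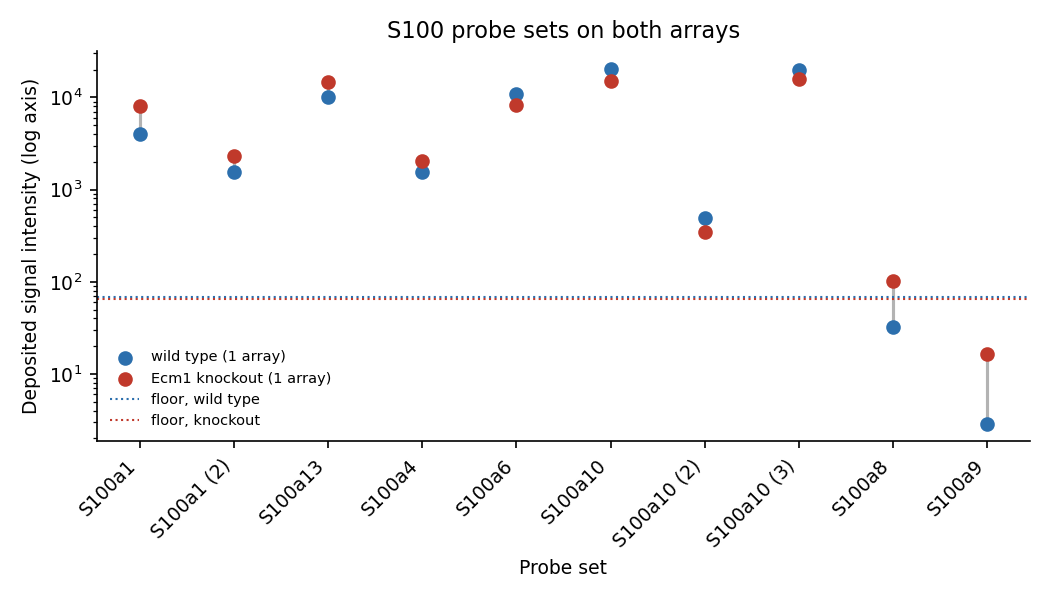
Deposited signal intensity (log axis) of the 10 S100 probe sets on the knockout array (red) and the wild-type array (blue), with the floor of each array dotted. A number in brackets marks a further probe set of the same gene. The 8 probe sets of S100a1, S100a13, S100a4, S100a6 and S100a10 lie above the floor on both arrays, S100a8 crosses it and S100a9 lies below it. Heights of different probe sets are not comparable as levels.

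S100a1, known as a regulator of calcium cycling in heart and skeletal muscle, has 2 probe sets on the array. The brighter read 7953.7 in the knockout against 4019.2 in wild type, a difference of 1.09 or 2.13-fold. Its name ends in _s_at, the suffix for probes that can match more than 1 transcript. The other read 2323.4 and 1551.6, a difference of 0.69 or 1.61-fold. Both were higher in the knockout, and they stood 0.40 apart. The technical SD of a single probe set was 0.36, and that of a gap between probe sets is larger. Among genes on both arrays, 5.91% were at least as high as the first and 14.7% as high as the second. The 2-fold call rested on the setting, since the difference was 0.98 without centring, 0.93 after quantile normalization, 0.94 after loess, 0.89 as the mean of both probe sets and 0.69 without probe sets of the _x_at, _s_at and _a_at types.

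S100a13, which takes part in the release of FGF1 and IL-1α from stressed cells, read 14656.1 in the knockout against 9983.2 in wild type. The difference was 0.66 or 1.58-fold, and 15.6% of genes on both arrays were at least as high. S100a13 thus lay in the same direction as its head-to-head neighbour S100a1, with both at least 1.5-fold higher as reported. For S100a13 that call did not hold under every normalization. Loess put it at 0.53, quantile normalization at 0.48 and uncentred values at 0.55, each under 1.5-fold. Setting this pair beside others at 1.5-fold depends on that call. Across the RefSeq table, 545 head-to-head pairs with at most 1000 bases between their starts had both genes measured on both arrays, and in 33 of them (6.06%) both genes were at least 1.5-fold higher. Of the genes in these pairs 19.6% were. The paired differences correlated at r = 0.29 across the 545 pairs, which share both arrays and their scaling and are not independent replicates. This comparison was chosen after the values of both genes were seen.

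S100a4, a binder of non-muscle myosin that marks motile and memory lymphocytes and also fibroblasts and macrophages, read 2038.0 in the knockout against 1560.4 in wild type. The difference was 0.49 or 1.40-fold, and 22.4% of genes on both arrays were at least as high. S100a6, also named calcyclin, read 8260.1 in the knockout against 10758.4 in wild type. Its difference was -0.28, and 28.0% of genes were at least as low. S100a4 and S100a6, separated on the chromosome by S100a5 alone, therefore lay on opposite sides of 0, each from 1 probe set and each within about 1.4 technical SDs of it.

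S100a10, the calcium-insensitive member that binds annexin A2 at membranes, has 3 probe sets. The brightest by mean log2 signal read 15191.5 in the knockout against 20520.1 in wild type (-0.33), the next 15754.4 and 19740.4 (-0.22), and the dimmest 347.1 and 494.8 (-0.41). All were lower in the knockout and they lay within 0.19 of each other, closer than the technical SD of a single probe set. Of genes on both arrays, 25.0% were at least as low as the brightest, so the difference stood at the edge of the interquartile range of genes.

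**Figure D2:**
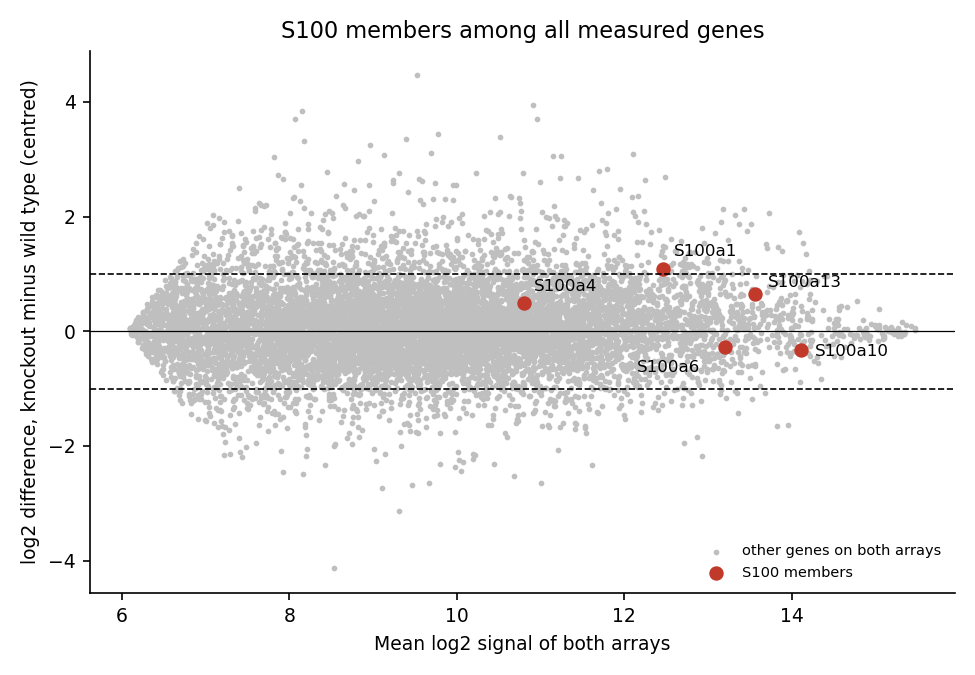
Difference of log2 signal, knockout minus wild type (centred), against mean log2 signal for 10144 genes on both arrays (grey) and the 5 S100 members among them (red). Dashed lines mark 2-fold. S100a1 (1.09) is just past the upper line, S100a13 (0.66) and S100a4 (0.49) are above 0, and S100a6 (-0.28) and S100a10 (-0.33) below it.

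Of the neutrophil members, S100a8 was above the floor on the knockout array only and S100a9 on neither array. S100a8 read 102.3 in the knockout, 1.56 times the floor, and 32.3 in wild type, below the floor. Set against the wild-type floor, its difference was 0.67 or more, at least 1.59-fold higher in the knockout. Of the 1121 genes above the floor on 1 array only, 9.37% were at least 2-fold higher by such a bound, and S100a8 was not. The 1121 include genes above the floor in wild type only, which could not be called higher. The share among genes above it in the knockout only is therefore larger. With the floor at the 70th percentile S100a8 was below it on both arrays and had no value, and with no floor its difference was 1.77. S100a9 read 16.4 in the knockout against 2.9 in wild type, below the floor on both, and has no fold.

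Against the median of the 5 other members (0.49), the bound of S100a8 lay 0.18 higher, so this contrast was 0.18 or more. The technical SD comes from probe sets on both arrays and does not apply to a bound. With no floor, where S100a9 enters at 2.60 from signals below it on both arrays, the median of S100a8 and S100a9 lay 1.70 above that of the others. A contrast between the neutrophil members and the others was therefore not measurable above the floor at these signals. In detection, all 5 measured members of the other class were on both arrays and neither neutrophil member was. Over all 18193 named genes, 10144 were on both arrays and 11265 on 1 or both. Detection of so few members is a description only. Of 20 neutrophil markers on the array, 14 were below the floor on both, among them the granule genes Mpo (23.8 and 29.0), Elane (59.2 and 41.2), Ltf (25.4 and 30.2) and Camp (12.5 and 5.4). Of the 6 measured, 1 was at least 2-fold higher in the knockout, the collagenase Mmp8 (299.6 against 97.9, a difference of 1.72, and a bound of 0.06 at the 70th percentile floor), and none lower. Over all 11265 genes measured on either array, 7.37% were higher by that much and 4.45% lower. The summed signal of the neutrophil list was 1037 in the knockout against 836 in wild type. Without Mmp8, the other 19 genes summed to 737 and 738.

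Monocytes and macrophages also make S100a8 and S100a9. Of 19 measured monocyte and macrophage markers, 7 were at least 2-fold higher in the knockout and 1 lower, where 7.37% and 4.45% of all 11265 genes were. The lysozyme Lyz2 read 2796.2 against 275.5, the chitinase-like Chil3 1039.5 against 78.0 and arginase Arg1 1484.4 against 167.7, while the chemokine receptor Ccr2 went the other way with 440.1 against 2556.8. The part of these cells in the S100a8 signal was not tested.

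Under the 8 other settings of processing, S100a1, S100a13 and S100a4 stayed above 0 and S100a6 and S100a10 below 0 wherever they had a value. S100a13 ran from 0.48 to 0.66, S100a4 from 0.39 to 0.49, S100a6 from -0.46 to -0.28 and S100a10 from -0.44 to -0.32.

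**Figure D3:**
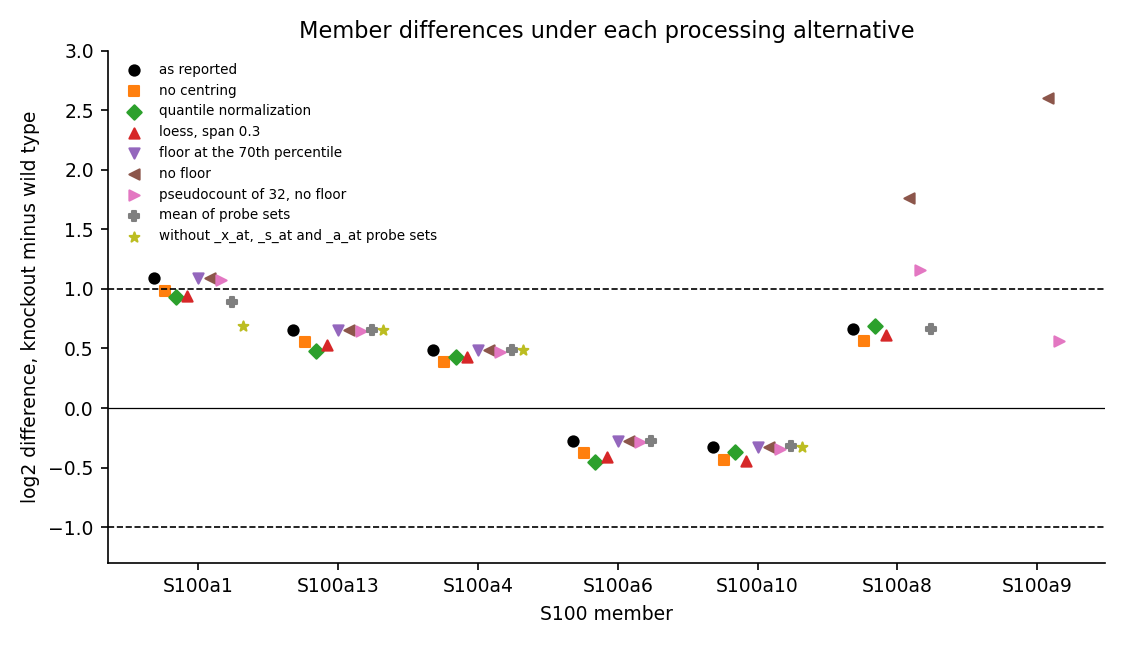
Difference of log2 signal, knockout minus wild type, of the 7 S100 members as reported (black) and under each processing alternative (1 point a setting), with dashed lines at 2-fold. S100a1 lies on both sides of the upper line, S100a8 moves from 0.67 to 1.77 when the floor is dropped, and S100a9 has values only without a floor.

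**Figure D4:**
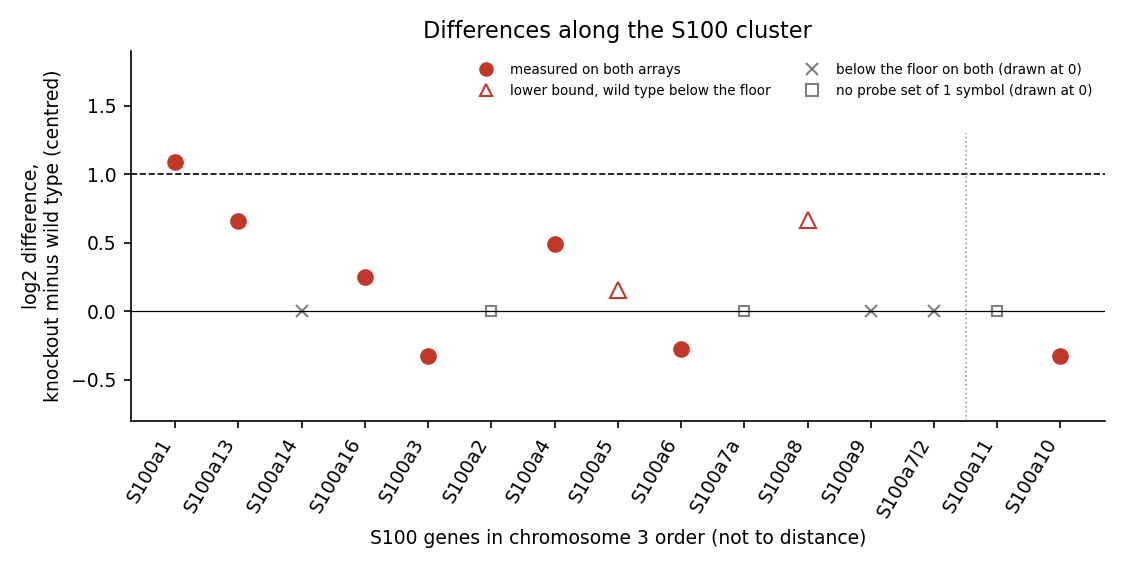
Difference of log2 signal, knockout minus wild type (centred), of 15 S100 genes in their order on chromosome 3, not to distance. Filled circles are genes on both arrays, open triangles lower bounds, and grey marks genes with no value, drawn at 0. A dotted line marks where other genes lie between S100a7l2 and S100a11. Genes above and below 0 are interleaved along the cluster.

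Other members of the family were near or below the floor. Of 11 on the list, 7 had a probe set, and 2 were measured on both arrays. S100a3, a hair cuticle protein, read 178.9 in the knockout against 241.4 in wild type (-0.33). S100a16 read 81.6 and 73.8 (0.25) and was below the floor on both arrays in its other probe set. S100a5 read 71.6 in the knockout and 65.5, under the floor, in wild type, a bound of 0.15. S100b, the glial member, read 35.8 and 7.9 in its brighter probe set, and S100a14, S100g and S100a7l2 were likewise below the floor on both arrays. The fused S100 genes of the skin, such as filaggrin, were below it for all 5 on the array. Of 42 genes with a probe set that lie between the first and the last member and are not members, 35 were below the floor on both arrays. Of the other 7, the skin gene Lor alone was at least 2-fold higher (148.2 against 72.8, its wild-type signal near the floor), where 7.37% of all 11265 genes were.

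Of 15 intracellular binding partners of S100 proteins on the array, 13 were measured, none was at least 2-fold higher and 1 was lower by as much, with a median of -0.20, beside 7.37% higher, 4.45% lower and a median of 0.05 over all 11265 genes. The lower gene was Ahnak, a giant membrane scaffold bound by S100a10 with annexin A2. It read 1454.4 against 5108.0 (-1.71) in its brightest probe set, and its other 2 measured probe sets, both near the floor, were at -0.46 and -0.35, so the mean of its probe sets was at -0.84. Anxa2, the annexin partner of S100a10, read 6563.7 against 11106.0 (-0.66), and Anxa1, a partner of S100a11, 923.6 against 1823.1 (-0.88). S100a10, Anxa2 and Ahnak were thus all lower in the knockout, S100a10 least. Cacybp, the S100a6-binding protein, lay opposite to S100a6 with 3227.2 against 2204.9 (0.65). The myosin heavy chain Myh9, a target of S100a4, read 12660.2 against 17615.4 (-0.37). Fgf1, the cargo of S100a13, was below the floor at 40.8 and 42.0. Apart from Ahnak these partners were within 2-fold and were chosen for their link to a member after the values were seen.

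Among 8 measured receptors for released S100 proteins, 3 were at least 2-fold higher in the knockout and 1 lower, with a median of 0.69, beside 7.37%, 4.45% and a median of 0.05 over all genes. Alcam, an adhesion receptor, read 3482.3 against 740.2 (2.34), with its other 4 probe sets from 1.22 to 1.82. Cd36, a scavenger receptor of macrophages, read 239.0 against 73.8 (1.80), and Ly96, the co-receptor of TLR4, 632.3 against 281.8 (1.27). The wild-type signal of Cd36 was near the floor. Of its other probe sets, the brighter had only a bound (1.19) and the dimmer was below the floor on both arrays. Tlr4 itself read 156.2 against 88.7 (0.92). Ager, which encodes RAGE, went the other way with 128.2 against 331.6 (-1.27), and its other probe set was at -1.20. At the 70th percentile floor Ager kept only a bound of -0.14 and Cd36 had no value.

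Of 23 other EF-hand genes measured, 2 were at least 2-fold higher, none lower and 21 neither, with a median of -0.06. Over all 11265 genes 7.37% were higher by that much and 4.45% lower, with a median of 0.05, so the EF-hand share of higher genes was near that of all genes. The higher ones were Nucb2 (364.4 against 145.1, 1.43, or 0.34 by its bound with the raised floor) and Calu. Calu, a calcium-binding protein of the secretory pathway, read 3555.8 against 1788.4 (1.09), with 0.37 in its other probe set and 0.99 without centring. Effector and memory T cell genes, the class with which S100a4, S100a6 and S100a10 are usually grouped, had 1 of 22 at least 2-fold higher, 4 lower (4.45% over all genes) and 17 neither, with a median of -0.11. Cd44 was higher (1.29), and Ahnak, Hopx (-1.28), Cxcr3 (-1.21) and Itga4 (-1.10, and -0.54 as the mean of its probe sets) were lower, while the abundant Lgals1 and Vim read nearly alike on both arrays (-0.01 and 0.08, the latter just below 0 without centring and after loess). Naive T cell genes were all below 0, with 8 of 15 at least 2-fold lower, where 4.45% of all genes were, and a median of -1.21, led by Cd27 (-2.53) and Klf2 (-2.33). T cell markers had 6 of 13 at least 2-fold lower, against the same 4.45%, and a median of -0.94. The 5 measured S100 members of lymphocytes or of many cell types, from -0.33 to 1.09, were all above that median and above -0.52, the T cell marker difference nearest to 0. So were most genes, as the lower quartile over all 10144 genes on both arrays was -0.33.

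**Figure D5:**
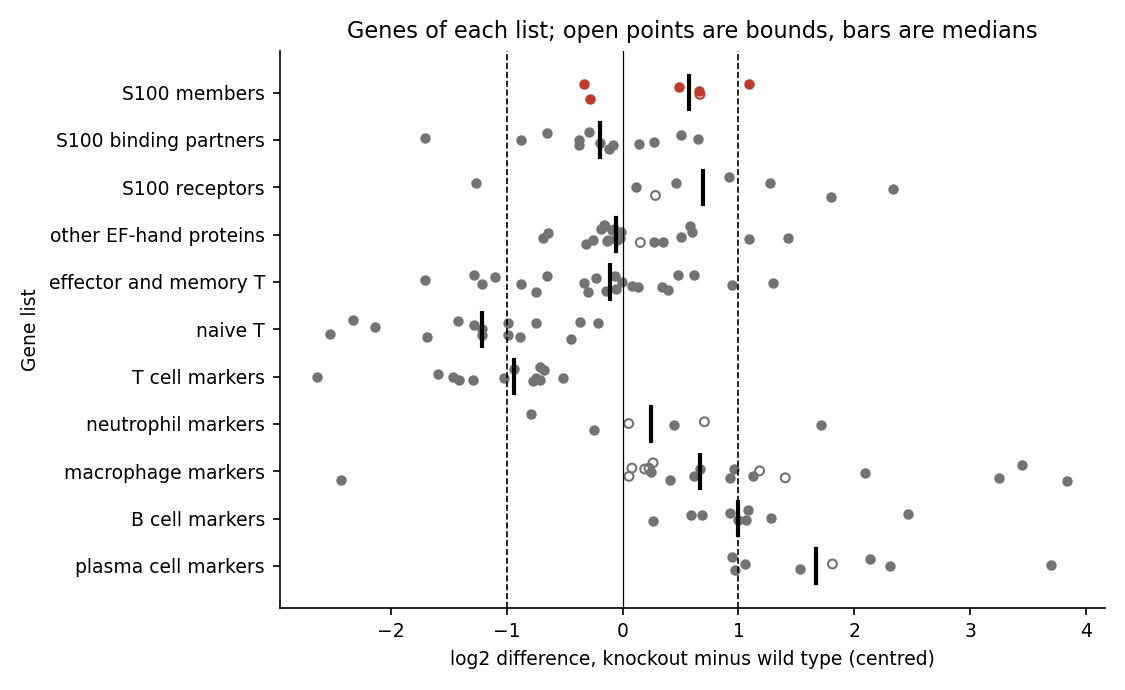
Difference of log2 signal, knockout minus wild type (centred), for each measured gene of 11 lists, with bars at the list medians and dashed lines at 2-fold. Open points are bounds. S100 members (red, 6 genes) lie between -0.33 and 1.09. Their median is between those of T cell markers (-0.94) and plasma cell markers (1.67), as are most other list medians. The lowest plasma cell marker (0.94) lies below S100a1.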

How the data were processed

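The authors deposited linear probe-set signal intensity values for 2 arrays. RNA labelling used the standard Affymetrix cRNA assay, per the labels' protocols, and software and settings of summarisation were not given in the sources used here. After leaving out the extreme 2% at each end, both arrays had a mean of 500.004, so a global scaling had been applied. Such scaling ties the values of all genes together.

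Probe sets were named by the platform annotation: 34945 had 1 symbol, 932 several and 9160 none, and 64 were controls. Signals were floored at the array median, taken to log2 and centred, and the probe set with the highest mean log2 signal stood for its gene. No test was run, as each group had 1 array. Python 3.11.15, pandas 2.3.3 and statsmodels 0.14.6 were used, and the procedure was tested on simulated data. The number of arrays limits the precision.

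The members and lists were chosen with earlier results of these data known. The rule named every member and other S100 gene, genes past 2-fold in the partner, receptor and EF-hand lists, and up to 4 of each other list. Other genes were added after their values were seen. Alternatives were no centring, quantile normalization, loess (span 0.3), other floors, a pseudocount of 32, averaged or restricted probe sets, and 1.5-fold and 3-fold thresholds. Promoter sequences are from RefSeq (GRCm38.p6).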

Additional observations from a re-analysis of the deposited data

How the results depend on the processing

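No paired analysis was possible because there was 1 array in each group. The directions of S100a1, S100a4, S100a6, S100a10 and S100a13 held in every setting that gave them a value, with ranges of 0.69 to 1.09, 0.39 to 0.49, -0.46 to -0.28, -0.44 to -0.32 and 0.48 to 0.66. S100a1 was at 0.69 without _x_at, _s_at and _a_at probe sets, a setting that leaves S100a6 and S100a8 without a value. S100a8 was at 1.77 with no floor and 1.16 with the pseudocount, where S100a9 was at 2.60 and 0.56. The count of members at least 2-fold higher, 1 as reported, was 0 without centring, after quantile normalization, after loess, with averaged probe sets and without those probe set types, 3 with no floor and 2 with the pseudocount, 3 at 1.5-fold and 0 at 3-fold. The neutrophil contrast was 1.70 with no floor, where S100a9 enters from signals below the floor on both arrays, and it was smaller with the pseudocount. Listed genes other than the members and the chromosome neighbours numbered 26 higher and 21 lower, against 57 and 32 with no floor and 43 and 40 at 1.5-fold, and 17 higher once the floor was the 70th percentile. Chromosome neighbours past 2-fold numbered 1 as reported, 0 at that floor and 20 with no floor. Signal over background limits S100a8, S100a9 and the other family genes. Of the listed genes the text calls 2-fold, Ager, Mmp8 and Nucb2 kept only bounds under 2-fold at the 70th percentile floor, Ahnak, Calu and Itga4 were under 2-fold as the mean of their probe sets (-0.84, 0.73 and -0.54), Calu also without centring (0.99), and Lor with the pseudocount (0.87).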
